A study of Mus musculus with 8 samples.

Results

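The Snord88 group of the mouse gene 2410002F23Rik consists of 4 small nucleolar RNA (snoRNA) rows, Gm26247, Snord88c, Snord88a and Gm23991, which lie on the plus strand of mm10 chromosome 7 between 44248090 and 44250542. They are 4 of the 5518 small RNA rows counted in the series and 4 of its 1507 snoRNA rows. The rows were chosen by name and position, and with their counts in the MES and TruSeq libraries already known, so differences between those 2 groups are given as a description and carry no test. Comparisons of MEF TEsR with either use the same values on one side, and their calls are read as no support. Small RNAs were counted in 4 MEF TEsR libraries, 2 MES TEsR libraries and 2 MEF TruSeq libraries. MEFs are mouse embryonic fibroblasts that carry a conditional knockout allele of TRF2, a protein that protects chromosome ends, together with the Cre recombinase Rosa26-CreERT2, which 4-hydroxytamoxifen activates. Of the MEF TEsR samples, 2 were induced with 0.6 µM of the drug for 48 hours and 2 were uninduced, but no label says what the codes in the column names mean. Induced and uninduced columns could therefore not be told apart, and all 4 stand as 1 group. MES cells are mouse embryonic stem cells grown without feeder cells in medium with leukemia inhibitory factor, and had no induction. Loss of TRF2 itself was not analysed here, since the tables count small RNAs. The TruSeq samples are induced MEFs by their titles, while the name of their table calls them control. TEsR ligates linkers to both ends of an RNA, removes 5′ caps, amplifies the products, captures chosen RNAs by hybridisation and applies no size selection; TruSeq is a standard small RNA library without that capture. Neither the capture probes for the 4 snoRNAs nor the number of cultures behind each group is given in the sources used here, so p-values measure the spread between these libraries, which may be technical.

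SnoRNAs of the box C/D class carry a C box near the 5′ end and a D box near the 3′ end, bind the methyltransferase fibrillarin and its partner proteins, and guide 2′-O-methylation of ribosomal RNA by base pairing next to the D box or an internal copy of it. In mammals most are cut out of the introns of host genes, so that several can be made from 1 transcript. In human, the SNORD88 snoRNAs are listed as guides for the RNA of the large ribosomal subunit. The 4 sequences are shown because their likeness, closest between Snord88c and Snord88a, bears on how reads could be assigned to each row. They are the GENCODE vM21 transcripts of these rows (mm10), 5′ to 3′, and capitals mark the C box (TGATG) and the last CTGA, the D box.
Gm26247: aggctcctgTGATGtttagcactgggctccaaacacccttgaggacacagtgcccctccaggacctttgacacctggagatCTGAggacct
Snord88c: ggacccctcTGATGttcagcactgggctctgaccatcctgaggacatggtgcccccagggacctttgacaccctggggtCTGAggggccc
Snord88a: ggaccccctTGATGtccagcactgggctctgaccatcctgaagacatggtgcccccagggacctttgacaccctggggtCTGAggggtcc
Gm23991: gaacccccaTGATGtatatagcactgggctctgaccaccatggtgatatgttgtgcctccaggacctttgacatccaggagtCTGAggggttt

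The rows were 91, 90, 90 and 93 bases long in the order printed, so counts were compared between them without division by length. The C box began at position 10 in all 4, counted from 1 at the 5′ end, and the D box began at position 82 in Gm26247, 80 in Snord88c, 80 in Snord88a and 83 in Gm23991. On the printed strand TGATG was present in 541 of the 1507 snoRNA rows (35.9%), and 355 rows (23.6%) had it within the first 16 start positions together with CTGA within the last 20. None of the 4 carried TGATGA, which stood in 393 snoRNA rows (26.1%). A run of 12 bases, AGCACTGGGCTC, just after the C box stood in the 4 members and in no other snoRNA row. A second run, GGACCTTTGACA, stood in the 4 members and in 1 more row, Gm25809 on chromosome 15, which had 0 counts in all 8 libraries. Gm25809 shared longer unbroken runs with Snord88c (22 bases) and with Snord88a (21 bases). Snord88c and Snord88a were the closest pair: 85 of 90 bases were identical (94.4%), they shared an unbroken run of 45 bases, and Snord88a differed from Snord88c by T8C, C9T, T16C, G42A and C88T, with the Snord88c base first. The other 5 pairs were 69.5% to 78.7% identical and shared runs of 14 to 18 bases. How reads that matched both Snord88c and Snord88a were counted is not given in the sources used here, so the counts of these 2 rows are uncertain. Only the TEsR columns have q10 in their names, a tag that no label explains and whose part in the TEsR counts of these rows was not tested. No exact run of more than 18 bases was shared by any other pair of members. RefSeq (GRCm38.p6) holds Snord88c as 84 bases and Snord88a as 72 bases, shorter than the counted rows, and the tables gave no match for the other two.

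The host gene 2410002F23Rik (ENSMUSG00000045411, chromosome 7, 44246722 to 44252319, plus strand) is annotated as protein coding with 20 transcripts. In the transcript used here to number introns, which has 6 exons, Gm26247 (44248090 to 44248180) lies in intron 1, Snord88c (44249852 to 44249941) in intron 3, Snord88a (44250135 to 44250224) in intron 4 and Gm23991 (44250450 to 44250542) in intron 5. The 4 snoRNAs end 71, 79, 84 and 70 bases before the next exon, a narrow range in introns of 1428, 421, 249 and 272 bases. Position in the host depended on the transcript: Gm26247 was intronic in 11 of 20 transcripts and fully exonic in 5, Snord88c intronic in 17 and exonic in 0, Snord88a intronic in 16 and exonic in 1, and Gm23991 intronic in 11 and exonic in 4. No other row of the tables lies in this host.

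The libraries held 3221641 to 3768668 counts for MEF TEsR, 2676776 and 2785150 for MES TEsR, and 8442960 and 8961221 for MEF TruSeq. The 2 most counted rows took 67.8% to 83.1% of a library: Snord68 and Snord70 in TEsR, Gm23212 and AC161199.1 in TruSeq. A level in CPM (counts per 1000000 counts of the library) therefore depends on those rows. MicroRNA markers of pluripotent cells summed to 0 to 1.33 CPM in MEF TEsR (2 of 12 rows with a count), 475 to 517 CPM in MES TEsR (12 of 12) and 0 CPM in MEF TruSeq (0 of 12). Fibroblast markers summed to 4661 to 20847 CPM in MEF TEsR (9 of 9 rows), 132 to 142 CPM in MES TEsR (4 of 9) and 53.5 to 90.3 CPM in MEF TruSeq (9 of 9). Markers of epithelium summed to 1.86 to 5.09 CPM in MEF TEsR, 90.8 to 96.9 CPM in MES TEsR and 0 CPM in MEF TruSeq, and those of blood, muscle, nerve and liver to at most 4.56 CPM in any library. These lists moved with the groups compared here, and their part in the snoRNA levels was not tested.

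**Figure D1:**
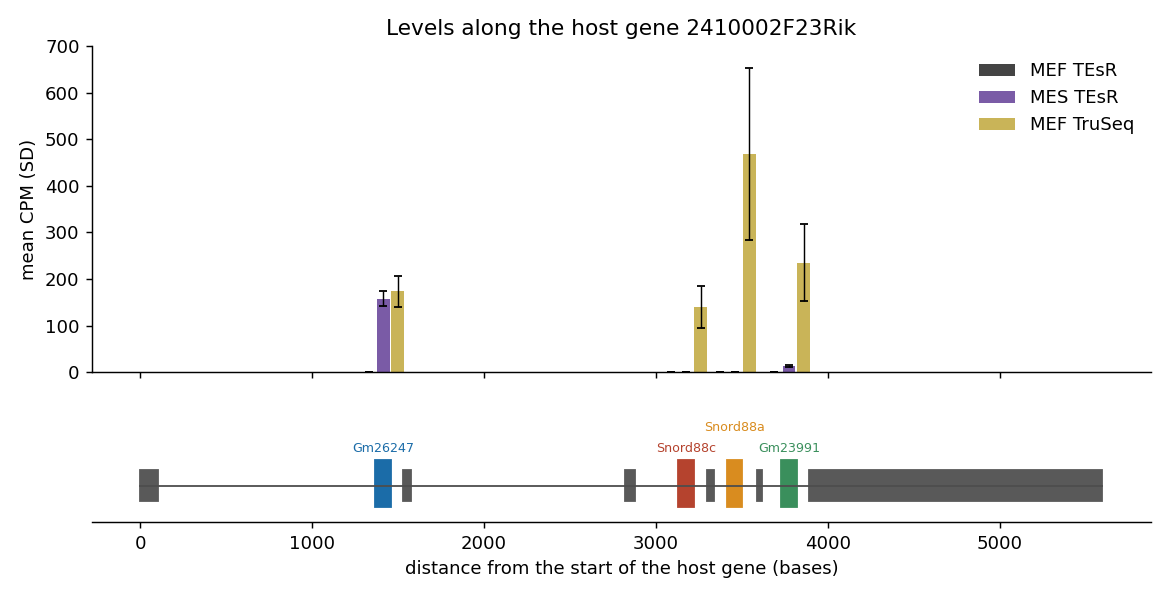
The upper panel plots the mean level of each snoRNA in CPM (bars, with SD as error bars) for 4 MEF TEsR, 2 MES TEsR and 2 MEF TruSeq libraries, placed along the host gene in bases from its start. The lower panel shows the 6 exons of that transcript as grey blocks and the snoRNAs as coloured blocks. Gm26247, in the first intron, stands apart from the 3 downstream snoRNAs, and its MES bar (158 CPM) is near its TruSeq bar (174 CPM).

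Gm26247, the first snoRNA of the host, had 2, 2, 2 and 2 counts in the MEF TEsR libraries, 472 and 391 counts in MES TEsR, and 1765 and 1269 counts in MEF TruSeq. It averaged 0.563 ± 0.0412 CPM in MEF TEsR (SD, n = 4), 158 ± 16.5 CPM in MES TEsR (n = 2) and 174 ± 33.0 CPM in MEF TruSeq (n = 2). Every MEF TEsR library was far below every MES and TruSeq library, and MES and TruSeq overlapped. Pooled over libraries, its level in MEF TEsR was 282-fold below MES TEsR (counting interval 142 to 654) and 311-fold below MEF TruSeq (157 to 720). Reads carried no molecular identifiers, so amplified copies were not set apart. The MES level of Gm26247 was 0.906 times the TruSeq level (0.839 to 0.978), an interval without the spread between libraries, covering counting error only. That ratio depended on the denominator: without the 4 rows that were among the 2 most counted in any library, Gm26247 averaged 866 ± 43.8 CPM in MES TEsR and 584 ± 160 CPM in MEF TruSeq, and without the TruSeq library of index ATCACG its log2 ratio, MES over TruSeq, was 0.070, against -0.14 with all 4 libraries. With TMM on snoRNA rows only, that ratio was 1.99.

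Snord88c, in the third intron, had 0 counts in all 4 MEF TEsR libraries, 0 in both MES TEsR libraries, and 1533 and 916 counts in MEF TruSeq, where it averaged 140 ± 44.2 CPM (SD, n = 2). It was counted in the TruSeq libraries alone. Taking 3 counts over a group as the floor that a count of 0 allows, it was, on library totals, at least 669-fold lower in MEF TEsR and at least 256-fold lower in MES TEsR than in MEF TruSeq. Scaling moved these bounds: with TMM on snoRNA rows only, which gave the lowest of the 5 scalings computed, they were at least 74.6-fold for MEF TEsR and at least 58.0-fold for MES TEsR. No fold can be given between MEF TEsR and MES TEsR.

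Snord88a, the near copy in the fourth intron, had 0, 1, 0 and 1 counts in MEF TEsR, 3 and 1 counts in MES TEsR, and 5359 and 2853 counts in MEF TruSeq. It averaged 0.144 ± 0.167 CPM in MEF TEsR, 0.725 ± 0.497 CPM in MES TEsR and 468 ± 184 CPM in MEF TruSeq. Both TEsR groups lay at 0 to 3 counts per library, with MEF TEsR at up to 0.310 CPM and MES TEsR at 0.374 CPM or more, and both TruSeq libraries lay far above them. Between MEF TEsR and MES TEsR the ratio was 0.192 with a counting interval of 0.0173 to 1.34, so a difference was not detectable at this depth. Its level in MEF TEsR was 3363-fold below MEF TruSeq (counting interval 931 to 27777), and in MES TEsR 644-fold below it (252 to 2365). Its log2 ratio, MES over TruSeq, was -9.33 on library totals, -7.96 with TMM scaling, -7.60 with DESeq2 size factors and -7.19 with TMM on snoRNA rows only, and -10.29 without MES replicate 1.

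Gm23991, in the fifth intron, had 0, 0, 2 and 0 counts in MEF TEsR, 43 and 32 counts in MES TEsR, and 2622 and 1484 counts in MEF TruSeq. The means were 0.141 ± 0.283 CPM in MEF TEsR, 13.7 ± 2.46 CPM in MES TEsR and 234 ± 82.6 CPM in MEF TruSeq, and no 2 groups overlapped. Its level in MEF TEsR was 97.9-fold below MES TEsR (counting interval 26.2 to 823) and 1682-fold below MEF TruSeq (465 to 13891). In MES TEsR it was 17.2-fold below MEF TruSeq (13.7 to 21.9) on library totals. These intervals cover counting error only and leave out the spread between libraries. The corresponding log2 ratio of -4.10 was -3.40 without the 4 most counted rows named above, -2.75 with TMM, -2.36 with DESeq2 size factors and -1.97 with TMM on snoRNA rows only, so the size depended on the scaling and the direction did not. In bulk RNA, fewer cells of a type and less RNA per cell cannot be told apart for any of these levels.

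**Figure D2:**
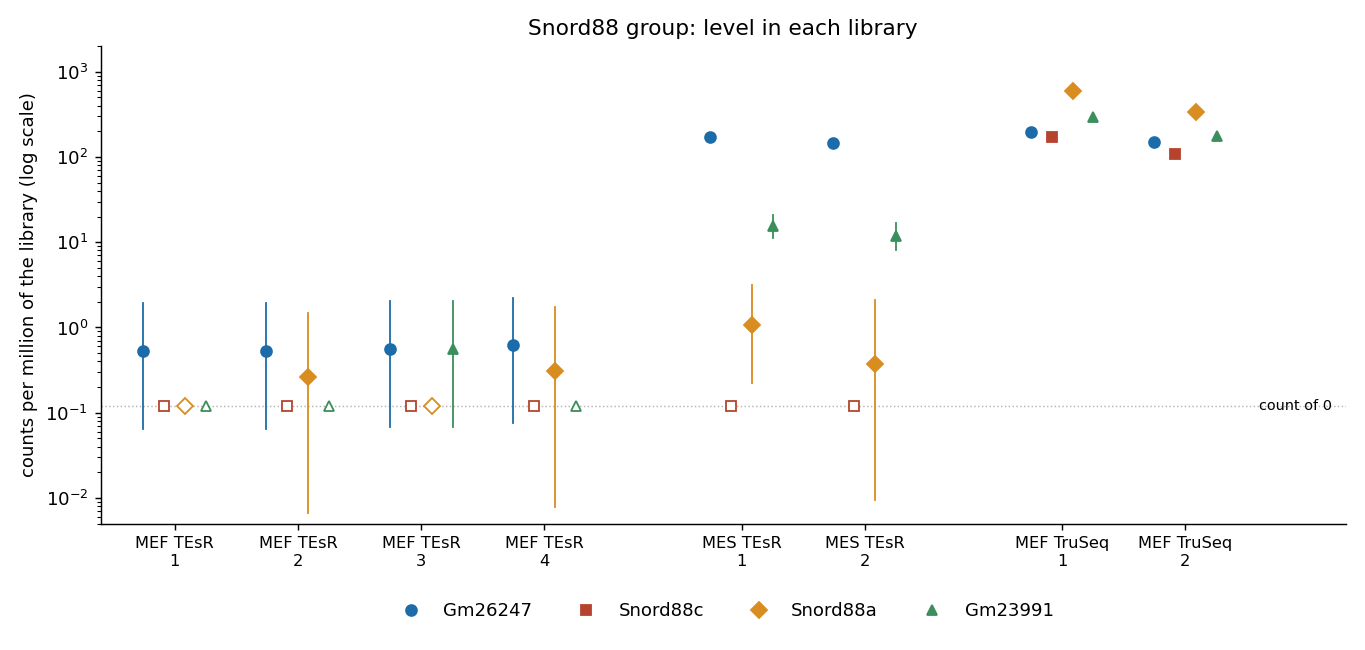
Level of each snoRNA in each library, in CPM on a log scale, with exact 95% counting intervals as lines; open symbols on the dotted line are counts of 0, and library numbers follow the order of the table's columns. The MEF TEsR points lie at 0 to 0.621 CPM, Gm26247 and Gm23991 separate from the other two in MES TEsR, and all 4 lie at 108 to 598 CPM in MEF TruSeq.

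The order of the 4 levels differed between groups. In MEF TEsR, 12 counts in all were spread over 14256294, of which 8 were Gm26247, and the other 3 members overlapped. In MES TEsR the order of means was Gm26247, Gm23991, Snord88a, Snord88c, and library values of neighbours did not overlap. The Gm26247 mean was 11.5 times that of Gm23991, which was 18.9 times that of Snord88a. Snord88a (3 and 1 counts) and Snord88c (0 and 0) were at or under the floor of 3 counts, with overlapping counting intervals. Their order in MES TEsR is therefore not shown. In MEF TruSeq the order was Snord88a, Gm23991, Gm26247, Snord88c. There the Snord88a mean was 2.00 times that of Gm23991 with no overlap, whereas Gm23991 and Gm26247 (1.35 times) and Gm26247 and Snord88c (1.24 times) overlapped between libraries. Within each TruSeq library, however, Gm23991 was above Gm26247 and Gm26247 above Snord88c.

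Shares among the members do not depend on the rest of the library. Gm26247 made up 8 of 12 counts in MEF TEsR (66.7%, exact Clopper-Pearson interval 34.9% to 90.1%), 91.7% ± 0.776 in MES TEsR (SD, n = 2) and 17.6% ± 2.69 in MEF TruSeq (n = 2). Snord88a made up 2 of 12 counts in MEF TEsR, 0.407% ± 0.243 in MES TEsR and 45.6% ± 2.66 in MEF TruSeq. Gm23991 made up 2 of 12 counts in MEF TEsR, 7.92% ± 0.533 in MES TEsR, and 23.2% and 22.8% in the 2 MEF TruSeq libraries. Snord88c was 0 of 12 counts in MEF TEsR, 0 of 942 in MES TEsR (exact Clopper-Pearson upper limit 0.391%) and 13.8% ± 0.320 in MEF TruSeq. MES TEsR and MEF TruSeq did not overlap for any member's share, and the replicates within each were close. The 4 shares add up to the whole, so they are not independent, and each group has only 2 libraries. How often shares fail to overlap in other hosts was not computed. Of 31 other hosts with 3 or more snoRNA rows, 15 also had different leading rows in these groups. Shares in MEF TEsR could not be tested usefully against either group, since the smallest two-sided p that an exact permutation test of 4 against 2 libraries allows is 0.133.

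**Figure D3:**
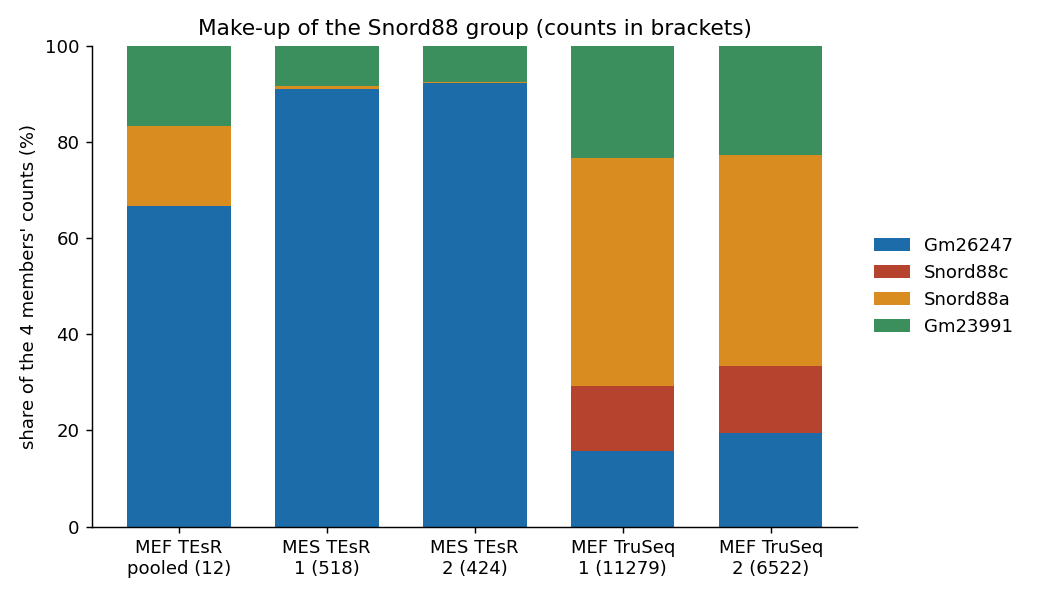
Share of each snoRNA among the counts of all 4, in percent, for MEF TEsR pooled (12 counts), for each MES TEsR library and for each MEF TruSeq library, with the counts of the 4 in brackets. Gm26247 fills over 90% of both MES bars, and Snord88a is the largest part of both TruSeq bars.

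Across all rows, the MEF TEsR group was compared with each of the others by edgeR's quasi-likelihood test, which calls a row at a Benjamini-Hochberg adjusted p under 0.05. Of 273 rows tested for MEF TEsR over MES TEsR, 119 were called lower (43.6%), and the median log2 fold change was -0.45. Members passed the low-count filter for 2 of 4, through their MES counts alone, so these had to differ and their calls are no support. For Gm26247 the log2 fold change was -8.82 ± 0.44, with an edgeR adjusted p of 3.50e-07. For Gm23991 it was -7.07 ± 0.88, with an edgeR adjusted p of 4.03e-05. Here ± is an approximate SE, the size of the fold change divided by the square root of the test's F statistic. The SE from DESeq2 was larger, 0.72 for Gm26247 and 1.34 for Gm23991. Of the 148 other snoRNA rows tested, 91 were called lower and 21 higher, with a median of -2.48, and 6 had a more negative fold change than Gm26247. Other Snord-named rows had 43 of 70 called lower (median -2.58), and snoRNA rows within 10 bases of a member in length had 26 of 40 (median -1.82). Snord88a and Snord88c were not tested in this comparison. Fitted on snoRNA rows only, the log2 fold change was -7.20 for Gm26247 and -5.51 for Gm23991; without the single MEF TEsR library that held its 2 counts, that of Gm23991 was -8.93, which is then a fit against 0 and no bound. Both stayed called in each case.

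For MEF TEsR over MEF TruSeq, 196 of 352 rows tested were called lower (55.7%), with a median log2 fold change of -2.42. All 4 members passed the filter, through TruSeq alone, so that these too had to differ, and all 4 were called lower. The log2 fold changes were -7.64 ± 0.58 for Gm26247, -10.95 ± 0.78 for Snord88a and -10.02 ± 0.82 for Gm23991 (SE). The largest edgeR adjusted p of the 4 was 1.37e-06, for Snord88c, whose fitted fold change depends on the prior count. Without the TruSeq library of index ATCACG the values were -7.02 for Gm26247, -10.03 for Snord88a and -9.18 for Gm23991. On snoRNA rows only they were -5.10 for Gm26247, -8.49 for Snord88a and -7.53 for Gm23991. Leaving out 1 MEF TEsR library with a count gave -11.55 for Snord88a and, where it held both counts, -13.14 for Gm23991, and all of these stayed called. Among the 214 other snoRNA rows tested, 162 were called lower and 23 higher, with a median of -4.57, and 46 had a more negative fold change than Gm26247. Snord-named rows gave 52 of 75 called lower (median -3.21), and rows of like length gave 22 of 43 (median -1.22). This comparison and the previous one share the MEF TEsR libraries. Method and machine differ along with the label in this one, so cell state and method cannot be told apart. Between MES TEsR and MEF TruSeq, cell type, method and machine all differ, and by title induction too. These cannot be told apart for any level, share, order or ratio of those 2 groups.

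Ranked by mean level among snoRNA rows with any count in the group, Gm26247 was 145th of 208 in MEF TEsR, 63rd of 242 in MES TEsR and 103rd of 305 in MEF TruSeq. Snord88a was 179th, 190th and 80th in the same groups, Gm23991 180th, 119th and 94th, and Snord88c 112th in MEF TruSeq. Of the 108 other snoRNA rows at or above the mean TruSeq level of Snord88c (140 CPM), 1 had no count in MEF TEsR and 12 lay under 1 CPM there. None of these 108 was without a count in MES TEsR, 2 had 3 counts or fewer over both MES libraries, and 50 had a MES mean at or under 10% of their TruSeq mean. The cutoff is the level of Snord88c itself. Below it, the snoRNA row Gm22059 (89.7 CPM in MEF TruSeq) also had no count in any TEsR library.

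**Figure D4:**
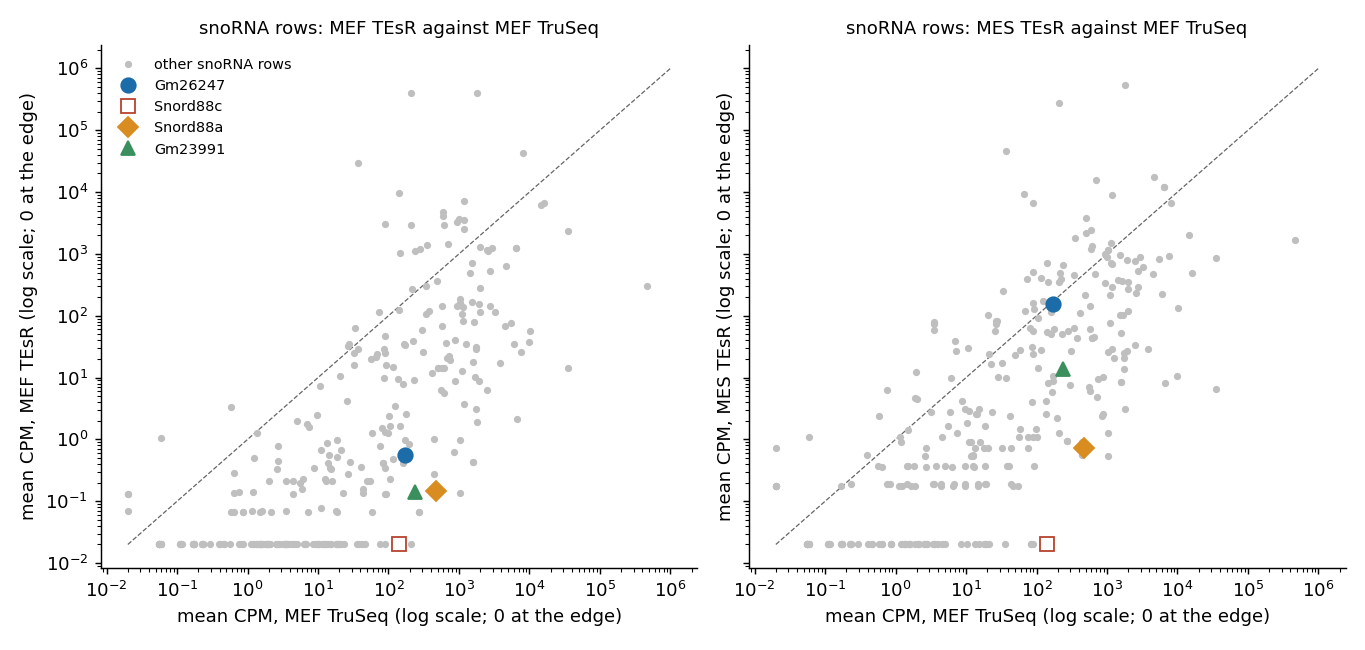
Mean CPM of each snoRNA row in MEF TEsR (left panel, n = 4) and MES TEsR (right panel, n = 2) against its mean in MEF TruSeq (n = 2), on log scales, with means of 0 drawn at the edge and a dashed line of equality. All 4 members lie low in the left panel; in the right panel Gm26247 (158 against 174 CPM) lies close to the line and Snord88c at the lower edge.

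Among the 31 other host genes with 3 or more snoRNA rows and counts in both MES TEsR and MEF TruSeq, 16 had the same leading row in the 2 groups and 15 had different ones, as this host did. The log2 ratios, MES over TruSeq, of the members of this host spanned 9.20, with counts of 0 at their floor; the other hosts had a median span of 4.70, and 4 of 31 were wider. The summed mean level of the 4 was 203 times as high in MES TEsR as in MEF TEsR, where they had 12 counts in all. Pooled over libraries, that ratio was 205 (counting interval 117 to 398), and 863 of the 942 MES counts were Gm26247. No other host of the 31 had a larger ratio of summed means (median 4.04). This host was chosen with its MES and TruSeq counts known, so its place among the hosts is no support. These hosts were not tested against each other.

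Rows most like each member were found by the root mean square difference of centred log2(CPM + 1) over the 8 libraries, among 302 rows with a mean of 10 CPM or more in a group. For Gm26247 these were Snord14c in Hspa8 (0.711), Snord64 (0.812) and Snord34 in Rpl13a (0.893). For Snord88c they were the snoRNA Gm22059 in Med24 (0.280) and the small nuclear RNA (snRNA) rows Gm23143 (0.288) and Gm22265 (0.341). Snord88a was most like the snRNA row Gm24871 (0.395) and the snoRNA rows Gm24455 in Taf1d (0.436) and Snord60 (0.441), and Gm23991 was most like Gm25855 in Snhg1 (0.450), Snord96a in Rack1 (0.522) and Snord95 in Rack1 (0.615). Gm22059 and Gm24871 (378 CPM in MEF TruSeq), like Snord88c, had 0 counts in every TEsR library. Within the group, Snord88c and Snord88a were 0.658 apart, Gm26247 and Gm23991 1.47, and Gm26247 was 2.93 from Snord88c and 3.00 from Snord88a. Each member thus had at least 3 rows outside the group closer to it than any other member, and the libraries behind these distances fall into 3 groups.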

How the data were processed

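Read counts per small RNA row were deposited as whole numbers with no normalization, in 2 tables of 5518 identical rows, as the file headers show. The submitters' processing notes name mm10 and the tools bedtools 2.25.0, SAMtools 1.2.1, BWA 0.7.12 and cutadapt; their settings, and whether strand was used in counting, are not stated in the sources used here. MES columns name a replicate and all others name only their group. Types, hosts and sequences come from GENCODE vM21. CPM are counts per 1000000 counts of the library. edgeR 4.0.16 in R 4.3.3 (quasi-likelihood, robust, TMM, filterByExpr with a minimum count of 10) was fitted over all rows of the 2 groups compared, with Benjamini-Hochberg adjustment; DESeq2 1.42.0 was an alternative. Counts were simulated for 273 rows for MEF TEsR over MES TEsR, where 82.8% of 58 rows with a 4-fold change were recovered. For MEF TEsR over MEF TruSeq, 352 rows were simulated and 75.9% of 83 such rows were recovered. Simulated rows started from their mean level over both groups, unlike the members, which lay near 0 in MEF TEsR. Intervals are exact (95%) and cover counting error only, without the spread between libraries, and 3 counts is the floor for a count of 0. Replicates differed by more than counting noise (chi-square per degree of freedom 21.9 to 794), so none was counted as a duplicate. The rule for named rows took all 4 members, the 3 rows most like each, the nearest snoRNA row with counts on either side (not reported here) and fixed lists by count and median; Gm25809 and rows of other hosts were named after their values were seen. The members and lists were chosen with earlier results of these data known. The comparison of induced with uninduced MEFs was not made.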

Additional observations from a re-analysis of the deposited data

Results flagged for a closer look

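In the 4 MEF TEsR libraries, Gm23991 was counted in a single library, at 0.565 CPM (2 counts), and at 0 in the other 3, so that library stood apart from the rest. Chance alone flags about 1 in 20 groups of continuous values, a rate that need not hold for counts this low, and 2 counts is under the floor of 3.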

How the results depend on the processing

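In both comparisons with MEF TEsR, members tested in the reported fit (2 over MES TEsR, 4 over MEF TruSeq) stayed called lower under all 12 alternatives. These were DESeq2, library size only, snoRNA rows only, no filter, all libraries in 1 fit, duplicates counted once, and each library left out. The calls are no support, because the members were chosen with their MES and TruSeq counts known. In the fits with a filter, members also passed it only through groups where they are high. Over MES TEsR, 1 more member was tested with no filter and 2 more in the fit of all libraries, and none of these was called. Gm26247 ranged from -8.91 to -7.20 (log2, MEF TEsR over MES TEsR) and from -8.21 to -5.10 (over MEF TruSeq). With snoRNA rows only, which tests fewer rows, 72 rows were called lower for MEF TEsR over MES TEsR, against 119. With library size only, the median of all rows in that comparison was 0.38, against -0.45. The log2 ratio of Gm26247, MES over TruSeq, turned from -0.14 to 0.57 without the dominant rows and, in alternatives chosen after seeing the data, to 1.21 (TMM), 1.61 (DESeq2 size factors), 1.03 (TMM over all libraries), 1.99 (TMM on snoRNA rows only) and 0.80 (TMM, no filter); leaving out each library gave -0.32 to 0.070. The cause was not tested. As a share of all snoRNA counts instead of the members', the difference in percentage points, MES minus TruSeq, was -0.0074 for Gm26247 (74.1 among the members), -0.0187 for Snord88c, -0.0625 for Snord88a and -0.0299 for Gm23991. With a pseudocount of 0.5, 1 of the 3 rows most like Gm26247 was the same, and with 5, 0 of those most like Gm23991. Thinning every library to 2676776 counts left 0, 2 and 4 members with 10 counts or more in each library of MEF TEsR, MES TEsR and MEF TruSeq, as before. Depth limits statements on Snord88c and Snord88a in TEsR. No paired analysis was possible because the MEF TEsR and MEF TruSeq columns carry no replicate number that matches a sample.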
